A study of Danio rerio with 2 samples.

Results

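Cartilage and notochord genes were compared between 1 wild-type and 1 salvianolate-treated zebrafish library. The group was given as 10 gene names: acana, acanb, matn1, sox9a, sox9b, hapln1a, cnmd, epyc and ucmaa for cartilage, and tbxta for the notochord. Looked up by name without regard to capitals, these names gave 10 gene IDs among the 26597 rows of the deposited table. The names table lists matn1 as MATN1, and it lists both sox9 copies as SOX9 without a copy letter. Both SOX9 IDs were therefore members, and which is sox9a and which sox9b was not given; they are told apart below by ID. The other 7 names were matched as written.

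Both libraries are labelled as total RNA of cardiac tissue, and the title of the treated one speaks of embryos. Salvianolate is made from the root of the sage Salvia miltiorrhiza and holds its salvianolic acids. The labels give both group names, wild type and salvianolate-treated, as the genotype, so no separate genotype is stated for the treated library. The wild-type group carries no treatment in its labels, and the labels state no strain, age, dose, exposure time or number of animals for either group. The count column of the single-library file is headed AB72h_count for wild type and DSDF_count for treated; AB is the name of a common laboratory strain, but neither header is explained. Each group is 1 library, so no difference below has a replicate check, no test between conditions was possible, and the intervals given cover counting error only. The series' question is how salvianolate acts against cardiotoxicity.

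Cartilage is a tissue without blood vessels in which chondrocytes sit in a matrix of thin collagen fibrils and hydrated proteoglycan. Aggrecan, the main proteoglycan, carries chondroitin sulphate chains and binds hyaluronan, and a link protein of the Hapln family stabilises that bond. Matrilins are adapter proteins that connect collagen fibrils with proteoglycans. The transcription factor Sox9 is required for chondrocytes to form and activates matrix genes such as those of type II collagen and aggrecan. The notochord is the rod that supports the early embryo; it depends on the T-box factor Brachyury (tbxta in zebrafish) and is wrapped in a sheath that shares several matrix components with cartilage, type II collagen among them.

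The wild-type library held 19531764 counts after rounding and the treated library 19295524. Levels are given in CPM, a count scaled to its library's size with TMM factors, on which 3 counts equal 0.157 for wild type and 0.152 for treated. A gene was compared if it reached 1 CPM in either library, which 19829 genes did. It was called different at a fold of at least 2 if the exact 95% counting interval of the ratio also excluded 1. By this rule 533 genes were higher and 143 lower in the treated library, whereas the series' own text gives 109 genes up and 565 down. The submitters' processing notes give no settings, so these counts may rest on unlike rules. Directions here follow the library labels, and whether the labels or that text are exchanged is not known. The heart genes that could be placed were present at low levels: the 7 heart IDs summed to 65.5 CPM for wild type and 48.6 for treated. The heart names vmhc and nkx2.5 matched no ID, so this sum leaves them out. MYL7, which encodes a myosin light chain of the heart, had 18.3 and 14.7 FPKM (fragments scaled to gene length and library size). On that same length-adjusted scale MATN1 stood at 144 and 393 FPKM.

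Of the 10 members, 9 reached the floor of 1 CPM. Of these 9, 1 was at least 2-fold higher in the treated library, against 2.69% of all genes compared, and 0 were at least 2-fold lower, against 0.721%. The interval of the ratio lay above 1 for 5 of the 9 (MATN1, acanb, acana, epyc and cnmd), against 17.4% of all genes, and below 1 for 3 (hapln1a, 1 SOX9 gene and tbxta), against 17.3%. An interval is narrower for an abundant gene, so the shares were also taken over the 11243 genes with a mean of at least 10 CPM. There 0.605% were at least 2-fold higher, 0.196% at least 2-fold lower, 18.3% had an interval above 1 and 24.6% below 1. Several members lay far above 10 CPM, such as hapln1a at 396 CPM in wild type, so this allows for abundance only in part. Ratios are treated over wild type on the log2 scale unless called a fold, and their median was 0.20 over the 9 members and 0.26 over the 8 cartilage members that passed, beside -0.0021 over all genes compared. The members thus spread to both sides rather than moving as a block. They were chosen with earlier results of these data known, so these shares are no independent test of the group.

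**Figure D1:**
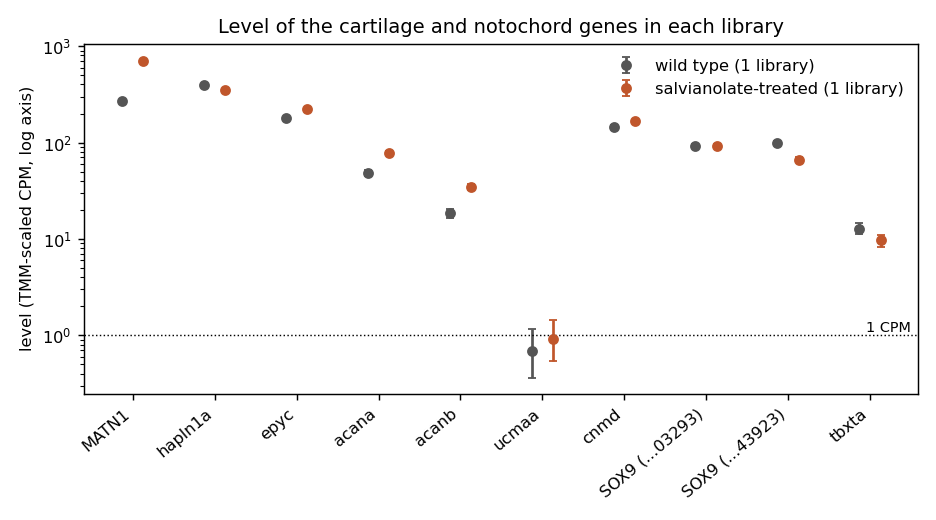
Level of each member in TMM-scaled CPM (log axis) in the wild-type library and the salvianolate-treated one; bars are exact 95% Poisson intervals and cover counting error only. MATN1 lies at 267 and 708 CPM, while ucmaa lies below the dotted line at 1 CPM in both.

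Among the matrix adapters, MATN1 (ENSDARG00000030215), which encodes matrilin-1, stood at 267 CPM in the wild-type library and 708 in the treated one. It was 2.66-fold higher in treated (2.57 to 2.74), a log2 ratio of 1.41 and the highest of the members. Of the 11243 genes with a mean of at least 10 CPM, 29 had a higher ratio. Were the labels exchanged, its fold would be 0.377 (0.365 to 0.389), the lowest of the members, and the order of all ratios here would turn with it. By FPKM it ranked 494th of 26597 rows in wild type and 240th in treated.

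The aggrecan genes came next. The level of acana (ENSDARG00000035891) was 48.1 CPM for wild type and 77.8 for treated, 1.62-fold higher (1.49 to 1.76). For acanb (ENSDARG00000045799) the levels were 18.4 and 34.3 CPM, 1.86-fold higher (1.64 to 2.13). Both copies were higher, and neither reached a fold of 2. Among genes of at least 10 CPM, 139 had a higher ratio than acana and 85 a higher ratio than acanb. The share of acana in the counts of both copies was 72.3% (69.8 to 74.8) in wild type and 69.4% (67.4 to 71.3) in treated. The intervals of these shares are exact binomial. The acana to acanb ratio in treated was 0.868 of that in wild type (0.743 to 1.01). As this interval holds 1, no shift between the copies was detectable at this depth.

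The link protein gene went the other way. The level of hapln1a (ENSDARG00000089769) was 396 CPM for wild type and 352 for treated, which gave a ratio of -0.17 (-0.22 to -0.12). Within the libraries, hapln1a had 5.96 counts for each aggrecan count in wild type and 3.14 in treated. This ratio in treated was 0.527 of that in wild type (0.488 to 0.569). From FPKM it was 0.478, outside that interval. It compares genes inside each library and does not depend on the scaling of library size. Which tissues the hapln1a and aggrecan counts came from was not tested. A further gene listed as HAPLN1 (ENSDARG00000068516), not a member, had 51.6 CPM in wild type and 74.0 in treated. Its ratio was 0.52 (0.40 to 0.64) by counts and 0.95 by FPKM. The gene listed as HAPLN3, also not a member, had 23.4 and 21.6 CPM and -0.11 (-0.31 to 0.08), where no difference was detectable. The genes hapln1a and HAPLN1 thus did not share a direction.

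Among the other members are genes for secreted or membrane-bound products of cartilage. The gene epyc (ENSDARG00000056950) encodes epiphycan, a small leucine-rich proteoglycan, and had 178 CPM for wild type and 222 for treated, a log2 ratio of 0.32 (0.25 to 0.38). The gene cnmd (ENSDARG00000100133) encodes chondromodulin, which in mammals opposes the growth of blood vessels into cartilage, and stood at 146 and 167 CPM, 1.15-fold higher (1.09 to 1.21). The ratio of epyc to cnmd counts was 1.22 in wild type and 1.33 in treated, a change of 1.09-fold (1.02 to 1.16). Finally, ucmaa (ENSDARG00000027799), which encodes a cartilage matrix protein rich in gamma-carboxyglutamate, had 13 counts in wild type and 18 in treated, or 0.680 and 0.913 CPM. It lay below the floor, and its fold of 1.33 (0.622 to 2.98) has an interval that holds 1, so no difference was detectable. The gene listed as UCMA (ENSDARG00000005485), not a member, was far more abundant at 27.0 and 41.0 CPM, with a ratio of 0.60 (0.44 to 0.76).

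The SOX9 genes differed from each other. SOX9 ENSDARG00000003293 had 91.4 CPM for wild type and 91.7 for treated, a log2 ratio of 0.0044 (-0.09 to 0.10). SOX9 ENSDARG00000043923 had 99.7 and 66.6 CPM and a ratio of -0.58 (-0.68 to -0.48), the lowest of the members. Of the genes with at least 10 CPM, 134 had a lower ratio than the second. The first copy made up 47.8% of the SOX9 counts in wild type (46.2 to 49.5) and 57.9% in treated (56.2 to 59.7), intervals that do not overlap. The aggrecan genes together had 0.348 counts for each SOX9 count in wild type and 0.708 in treated, a change of 2.04-fold (1.87 to 2.22). Per kilobase the first SOX9 gene was the more abundant in both libraries, at 54.7 and 59.0 FPKM against 28.9 and 20.3 FPKM for the second.

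In zebrafish, sox9 genes are also active outside cartilage, in neural crest and the inner ear among other places. The 6 neural crest genes summed to 270 CPM for wild type and 266 for treated, and 1 had an interval above 1 and 2 below. TFAP2A, a transcription factor gene and the most abundant, had a log2 ratio of 0.18 (0.10 to 0.26), and the crest marker gene crestin -0.50 (-0.68 to -0.32). Of the 8 inner ear IDs, 7 passed the floor, and 1 had an interval above 1 and 3 below. Beside both lists, 17.4% of all genes compared had an interval above 1 and 17.3% one below 1. Among genes with at least 10 CPM these shares were 18.3% and 24.6%. The summed level of the inner ear list was 155 and 150 CPM. The otolith matrix gene oc90 was the lowest at -0.76 (-1.01 to -0.51), and the starmaker gene stm the highest at 0.25 (0.14 to 0.36). No defining gene of either list was at 0. The part of these tissues in the SOX9 values was not tested, and in such bulk libraries fewer cells of a type and less RNA per cell cannot be told apart.

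**Figure D2:**
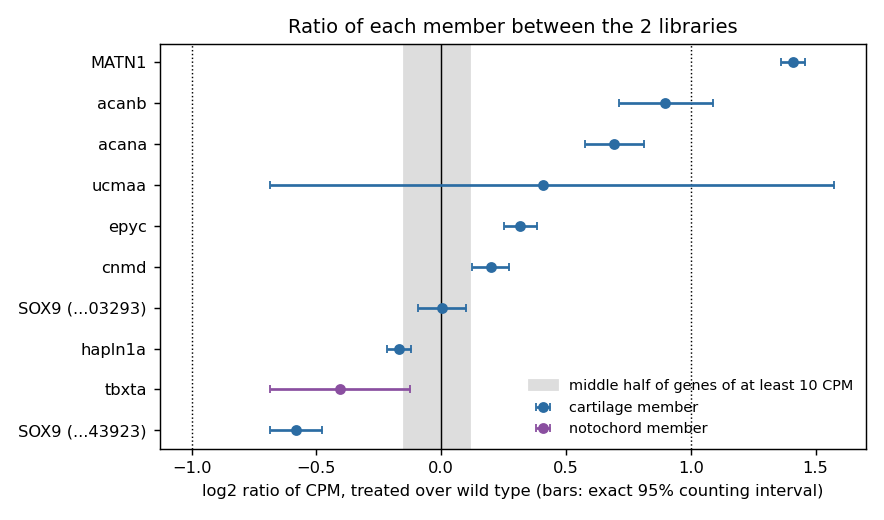
Log2 ratio (treated over wild type) of each member, with the exact 95% counting interval; the grey band holds the middle of the genes with at least 10 CPM, from the lower quartile of -0.15 to the upper quartile of 0.11, and dotted lines mark a fold of 2. MATN1 at 1.41 is the only member past a fold of 2, and hapln1a, tbxta and SOX9 ENSDARG00000043923 lie below 0.

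For the notochord, tbxta (ENSDARG00000101576), the Brachyury gene known as no tail, had 244 counts in wild type and 190 in treated, or 12.8 and 9.64 CPM. Its log2 ratio was -0.41 (-0.69 to -0.13), and 406 of the genes with at least 10 CPM had a lower one. The 9 cartilage members together reached 1245 CPM in the wild-type library and 1721 in the treated one, 1.38-fold higher (1.36 to 1.41). Most of that difference was MATN1: without it the sum was 978 and 1013 CPM, 1.04-fold (1.01 to 1.06). Cartilage members had 97.5 counts for each tbxta count in wild type and 179 in treated, a change of 1.83-fold (1.51 to 2.23). For the aggrecan genes against tbxta the change was 2.23-fold (1.82 to 2.75). With 1 notochord member and 1 library per group, these values describe the 2 libraries and not the classes.

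On the length-adjusted FPKM scale the order of levels in wild type was MATN1, hapln1a, epyc, cnmd, the SOX9 genes, acana, tbxta, acanb and ucmaa. Counting intervals of neighbours overlapped for epyc at 90.4 FPKM (87.4 to 93.5) and cnmd at 86.3 FPKM (83.1 to 89.5). In treated, epyc at 115 FPKM (111 to 118) stood above hapln1a at 107 FPKM (104 to 110), and hapln1a overlapped with cnmd at 103 FPKM (99.7 to 107). The aggrecan genes were far lower, with acana at 8.62 and 14.7 FPKM and acanb at 4.23 and 8.23 FPKM. The gene tbxta, at 5.65 FPKM in wild type (4.96 to 6.41), stood above acanb there and, at 4.45 FPKM in treated (3.84 to 5.13), below it.

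**Figure D3:**
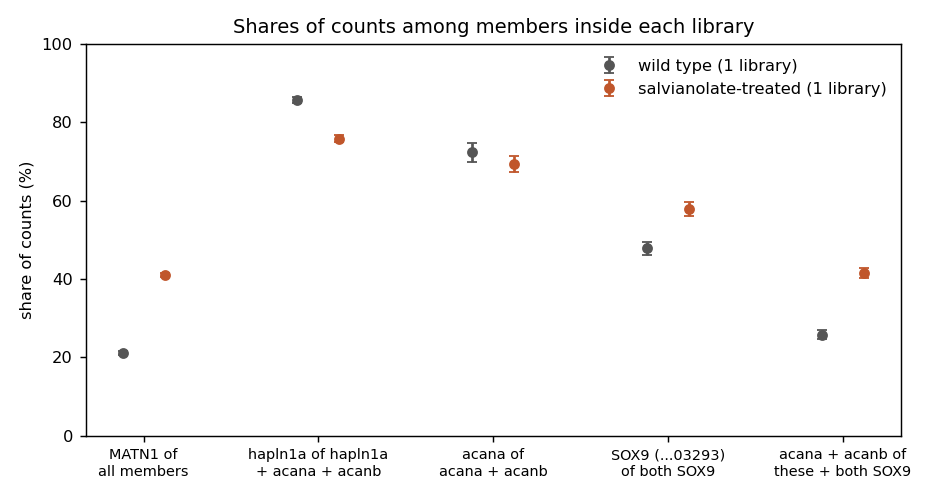
Share of counts, in percent, taken by a member or pair within a named set of members in each library, with exact 95% binomial intervals. The share of MATN1 among all members was 21.2% in wild type and 40.9% in treated, that of hapln1a beside the aggrecan genes 85.6% and 75.9%, and the acana share among both aggrecan copies overlapped between the libraries.

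Most other genes of cartilage matrix were higher in the treated library, as MATN1 and the aggrecan genes were. All 18 IDs of this list passed the floor, and 12 had an interval above 1. That compares with 17.4% of all genes compared and 18.3% of genes with at least 10 CPM. Many genes of this list lay far above 10 CPM, where a smaller change gives an interval that excludes 1. In this list 0 had an interval below 1, against 17.3% of all genes compared and 24.6% of genes with at least 10 CPM. At a fold of 2, 0 were called higher, against 2.69% and 0.605%, and 0 lower, against 0.721% and 0.196%. The list was chosen with earlier results of these data known, so these counts are no independent check on the members. The median log2 ratio of the list was 0.27. Since the notochord sheath shares type II collagen and other matrix components with cartilage, this list is not specific to cartilage. The part of the notochord in its values was not tested. The most abundant was COL2A1 (ENSDARG00000069093), a type II collagen gene, with 4038 CPM for wild type and 5113 for treated, 0.34 (0.33 to 0.35). The gene listed as COL9A1, of the type IX collagen that coats these fibrils, stood at 280 and 452 CPM, 0.69 (0.64 to 0.74), while col9a1b stood at 852 and 858 CPM, 0.01 (-0.02 to 0.04). For each count of the abundant COL2A1 gene, MATN1 had 0.0661 counts in wild type and 0.139 in treated, a change of 2.10-fold (2.03 to 2.17). The other matrilin genes did not share the level of change of MATN1: the MATN3 genes had 0.14 (0.07 to 0.22) and -0.14 (-0.33 to 0.05), the latter the lowest of the list, and MATN4 had -0.02 (-0.05 to 0.01). The highest ratio was that of the cytokine-like gene CYTL1, 0.93 (-0.02 to 1.99), at 0.733 and 1.42 CPM, which met the floor through the treated library alone.

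Among regulators of cartilage, 2 of 10 genes had an interval above 1 and 2 below, near the 17.4% and 17.3% of all genes compared, with a median of 0.07. SOX5, a partner of Sox9 and the most abundant, had 131 CPM for wild type and 122 for treated, -0.11 (-0.19 to -0.03). The joint growth factor gene GDF5 had the highest ratio, 0.45 (0.18 to 0.72), and the hedgehog receptor gene PTCH1 the lowest, -0.12 (-0.20 to -0.04). The enzymes and transporters that build chondroitin sulphate had a median of 0.04 over 20 IDs. Of these 20, 5 had an interval above 1 and 3 below, beside the same 17.4% and 17.3%. Among them CHPF (ENSDARG00000078037), a chondroitin polymerising factor gene, was highest at 0.59, with 61 counts in wild type and 95 in treated. The gene B3GAT3, whose product completes the linker that joins the chain to its core protein, was lowest at -0.41 (-0.58 to -0.25). The most abundant of this list, PAPSS2 (ENSDARG00000056600), which makes the sulphate donor, stood at 67.1 and 65.7 CPM.

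The notochord list held ratios on both sides of 0. Of 23 IDs, 21 passed the floor. Of these, 2 had an interval above 1 and 7 had one below 1, against 17.4% and 17.3% of all genes compared. Among genes with at least 10 CPM these shares were 18.3% and 24.6%. The median log2 ratio was 0.04, while the summed level was 1249 CPM for wild type and 1185 for treated, a ratio of -0.08 (-0.10 to -0.05), so the median and the sum differ in sign. Across the scalings, floors and units tried this median ran from -0.01 to 0.10. The laminin gene LAMA1 was lowest at -0.48 (-0.59 to -0.38), from 96.7 CPM for wild type and 69.1 for treated. The most abundant, the laminin gene lamc1, stood at 271 and 259 CPM, and the highest, the gene listed as VGLL2, a transcription cofactor, at 1.57 and 2.03 CPM, 0.36 (-0.35 to 1.10). Many genes of this list, laminins and hedgehog genes among them, are also expressed in other tissues. A gene listed as TBXT (ENSDARG00000039806), the general symbol of Brachyury, stood at 1.15 and 1.42 CPM, 0.30 (-0.55 to 1.18), where no difference was detectable. The gene noto, a notochord homeobox factor, had 2 counts in wild type and 6 in treated.

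Bone genes had a median of 0.31 over 10 of 13 IDs above the floor. They had 4 intervals above 1 and 1 below, against 17.4% and 17.3% of all genes compared. The osteopontin gene spp1 led them with 42 counts in wild type and 79 in treated, 0.86 (0.31 to 1.44). The most abundant, the matrix glycoprotein gene SPARC, stood at 1034 and 989 CPM, -0.06 (-0.09 to -0.04). The lowest of those above the floor was RUNX2 (ENSDARG00000040261), an osteoblast factor, at -0.65 (-1.80 to 0.41). With 20 counts in wild type and 13 in treated, or 1.05 and 0.659 CPM, RUNX2 met the floor through the wild-type library alone. Its interval holds 1, so no difference was detectable. The heart genes that were placed, from the labelled tissue, had a median of -0.31 over 6 IDs. Of these 6, 0 had an interval above 1 and 3 below, against 17.4% and 17.3% of all genes compared. Among them the natriuretic peptide gene nppa was lowest at -0.89 (-1.17 to -0.63) and cmlc1 highest at -0.17 (-0.46 to 0.12). The remaining heart ID, TNNT2 ENSDARG00000100694, lay below the floor with 6 counts in wild type and 12 in treated, 0.90 (-0.57 to 2.65). Across the scalings, floors and units tried the heart median ran from -0.38 to -0.23. How much of each tissue the libraries held is not stated, and its part in the cartilage values was not tested.

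**Figure D4:**
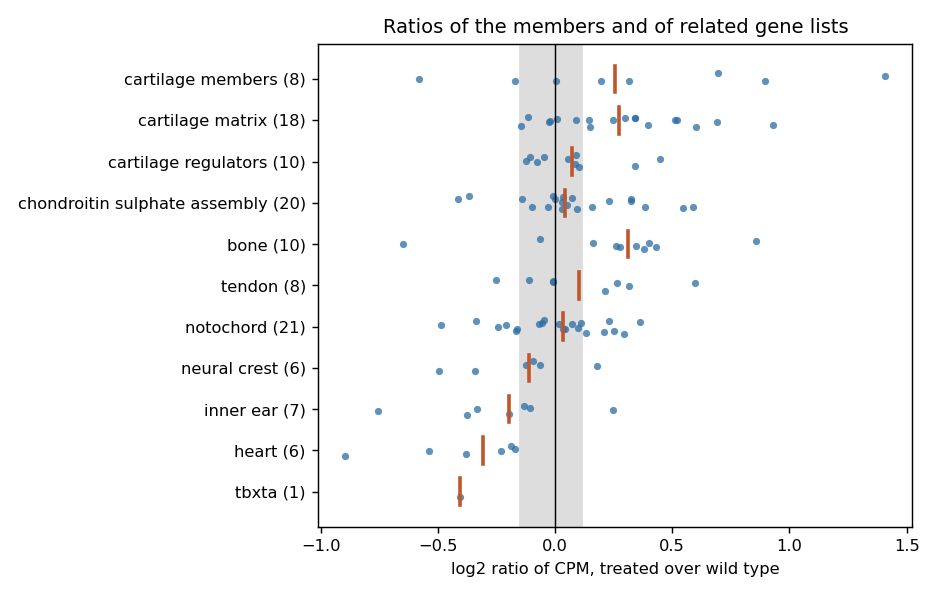
Log2 ratio (treated over wild type) of each gene above the floor (points) and the median of its list (orange line), with the number of genes in brackets and the quartile range of genes with at least 10 CPM in grey. The medians are 0.26 for cartilage members, 0.27 for cartilage matrix, 0.04 for the notochord list and -0.31 for heart, and tbxta lies at -0.41.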

How the data were processed

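The deposited table of the series, per the file headers, holds the authors' estimated counts, not normalised, and FPKM, scaled to gene length and library size. Of the count values, 10.3% in wild type and 10.4% in treated were not whole. The deposited files of the single libraries held the same counts for all 26597 rows. The submitters' processing notes name StringTie 1.3.1, HISAT2, Bowtie2 2.2.8, fastp 0.18.0, edgeR and DESeq2 with build danRer11, without roles or settings. Names came from a table of gene IDs, which named 23499 of 25197 Ensembl IDs. No genome of that build was used, so neither coordinates nor sequences are given. Reads of near-identical copies may be split between them.

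Counts were rounded, and library sizes scaled by TMM in edgeR 4.0.16 (R 4.3.3). Log2 ratios were computed after adding 0.5 counts. Intervals of ratios and shares are exact (Clopper-Pearson, 95%; conditional for a ratio of ratios), those of levels exact Poisson. The calls were tested on simulated data drawn with counting error only. That check could not test how the calls fare with variation between animals or libraries. Other steps ran under Python 3.11.15 with scipy 1.17.1, numpy 2.4.6, matplotlib 3.10.9 and pandas 2.3.3. PCR reads are not independent molecules, so the intervals can be too narrow even for counting error. With 1 library per group, no interval covers differences between animals or libraries.

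The members, and the 9 further lists, were chosen with earlier results of these data known. Of 110 names in those lists, 105 were placed, by the same matching as the members, so a name without copy letter brings in all its IDs. Text names all members and the highest, lowest and most abundant gene of each list. The genes HAPLN1, HAPLN3, UCMA, COL9A1, col9a1b, MATN3, MATN4, TBXT and noto were named after their values were seen. Genes were not chosen for likeness of pattern, since 2 libraries give none. Alternatives were scaling by upper quartiles, by total counts or by DESeq2 1.42.0 size factors, a floor of 5 CPM or none, 2 counts added, FPKM with a pseudocount of 0.5 and a floor of 1 FPKM, folds of 1.5 and 4, and no interval.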

Additional observations from a re-analysis of the deposited data

How the results depend on the processing

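No paired analysis was possible because there is only 1 library per group. TMM and total counts differ by -0.06 on the log2 scale. Of all genes, 533 were at least 2-fold higher and 143 lower. Raising the floor to 5 CPM left 181 and 33. Moving the fold to 1.5 gave 1204 and 523, and to 4 gave 75 and 21. Calls on FPKM used the fold and a floor of 1 FPKM without the interval, and gave 335 and 82. Calls on CPM without the interval gave 548 and 147. Without a floor 235 were lower. A higher floor or fold can only remove genes. Members called higher were 1 in the other settings and 0 at 4-fold. At 1.5-fold, 3 of the 9 members were called higher (MATN1, acana and acanb), beside 1204 of all 19829 genes compared. At that fold 0 members were called lower, beside 523 of all genes compared, though SOX9 ENSDARG00000043923 at 1.497-fold lower just missed the cut. Members with an interval above 1 stayed at 5 and below 1 at 3 under the 3 scalings, both floors and the larger prior, and no member with such an interval changed direction, FPKM included. The ratio of hapln1a moved beyond its interval, to -0.11 with total counts and -0.23 with FPKM. The change of hapln1a over the aggrecan genes also moved beyond its interval, from 0.527 to 0.478 with FPKM. SOX9 ENSDARG00000003293 ran from -0.01 to 0.11 (FPKM), and MATN1 reached 1.47 with total counts. The HAPLN1 gene outside the members had 0.95 by FPKM against 0.52 by counts; the cause was not tested. Leaving out MATN1, chosen after seeing the data, gave a median of 0.20 for the cartilage members and 0.10 for all members. Depth limits ucmaa, TBXT and noto, where a 2-fold ratio lies inside the interval.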

Other observations

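Tendon genes, whose cells share a lineage with cartilage, were mostly even between the libraries. Of 8 IDs, 1 had an interval above 1 and 1 below, against 17.4% and 17.3% of all genes compared. The median log2 ratio was 0.10 and ran from -0.01 to 0.16 over scalings, floors and units. The gene TNMD, which encodes tenomodulin, a relative of chondromodulin, was highest, with 15.7 CPM in the wild-type library and 23.7 in the treated one, 0.60 (0.38 to 0.81). Its relative cnmd had 0.20 (0.12 to 0.27). The THBS4 genes, of thrombospondin-4, were the most abundant at 188 and 187 CPM and the lowest at 11.8 and 9.89 CPM, -0.25 (-0.54 to 0.03).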
